A study of Xenopus laevis with 30 samples.

Results

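The comparison described here is the effect of an Sf3b4 morpholino on ribosomal RNA-depleted libraries of Xenopus laevis animal caps. It takes 6 of the 12 libraries of the series, which are 18 of its 30 sequencing runs, since each depleted library was run on 3 lanes that the authors had already added up. NWS libraries came from embryos that had received mRNA for noggin and wnt8 together with Sf3b4 antisense morpholino oligonucleotides, and NW libraries from embryos that had received the noggin and wnt8 mRNA without the morpholino. Both groups therefore carry the injected pair of mRNAs, and neither is an untreated control. Injection was at the 2-cell stage, caps were cut at stage 8 to 9, and total RNA of individual explants was extracted after 8 h of culture. Each group has 3 libraries, numbered 1 to 3 and labelled as biological replicates, and libraries of the same number were treated as pairs. The kind of morpholino (translation or splice blocking), its dose and any control oligonucleotide are not stated in the labels.

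The animal cap is the pluripotent ectoderm that roofs the blastula, and left alone it forms epidermis. Noggin binds and blocks BMP ligands, wnt8 activates the canonical Wnt pathway, and their combination is widely used to turn cap tissue into neural crest progenitors. Sf3b4 is a subunit of the SF3b complex, the part of the U2 small nuclear ribonucleoprotein that holds the branch point of an intron during splicing. In humans, mutations in SF3B4 are known from Nager syndrome, a disorder of face and limb development.

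Depth and composition differed strongly between the libraries. Totals were 351902, 2722942 and 840220 counts in NWS libraries 1, 2 and 3, and 1411856, 1153116 and 3570364 counts in NW libraries 1, 2 and 3. The entries LOC108705792 and ccdc50.L together took 59.6%, 88.3% and 62.7% of the counts in NWS libraries, and 56.8%, 86% and 19.3% in NW libraries (exact two-sided permutation test of the shares, p = 0.4, where 3 against 3 cannot go below 0.1). Without the 4 entries that exceeded 0.5% of the counts of any library, 127568 to 280600 counts per library remained in NWS and 115281 to 2809455 in NW. CPM here means counts scaled by 1e6 over the library size after TMM normalisation, and the TMM factors ran from 0.258 to 3.59, so CPM values are comparable between libraries but are not shares of a library's counts. Of the 49109 entries 6585 had enough counts to be tested, and the level of 3 counts, used as a floor for counting error only, was 2.76 to 5.89 CPM in NWS libraries and 0.268 to 7.58 CPM in NW libraries.

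Marker genes of neural crest, neural plate and epidermis were counted in both groups. Summed over 12 neural crest marker entries (snai2, sox8, sox9, sox10, foxd3 and twist1), NWS libraries 1 to 3 held 693, 100.4 and 131 CPM and NW libraries 1 to 3 held 679, 189 and 1185 CPM. The groups overlapped (exact permutation test, p = 0.3). Epidermal markers summed to 326, 90.3 and 11.1 CPM in NWS and 293, 197 and 48.3 CPM in NW (exact permutation test, p = 0.8), and neural plate markers to 137, 371 and 210.0 CPM in NWS and 136, 255 and 209 CPM in NW (exact permutation test, p = 0.6). Markers of multiciliated cells and ionocytes, of endoderm and of blood were scarce: 3 of 9, 4 of 7 and 1 of 7 entries had any count. Their sums were 0 to 3.93, 0 to 23.6 and 0 to 0.921 CPM in NWS, and 0 to 2.996, 0 to 5.80 and 0 CPM in NW, with mcidas, atp6v1b1.L, foxi1.L, foxi1.S, foxa2.L, gata4.L, sox17a.L, gata1, hba1 and tal1.L at 0 in all 6 libraries. Cement gland and placode markers, with 5 of 7 entries counted and agr2 at 0, summed to 2.87 to 24.9 CPM in NWS and 8.56 to 12.98 CPM in NW. Mesoderm and muscle markers summed to 0, 0 and 8.29 CPM in NWS and to 79.9, 0 and 2.59 CPM in NW, and the counts of NW library 1 were mostly actc1.S, actc1.L and myod1.S (73, 31 and 46 counts). In whole explants, fewer cells of a type and less RNA per cell cannot be told apart.

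The morpholino's own target was measured at a low level. The sf3b4.L entry had 27.5, 30.1 and 3.68 CPM in NWS libraries, against 10.98, 25.2 and 21.0 CPM in NW libraries, and sf3b4.S had 13.7, 12.9 and 3.68 CPM in NWS, against 21.0, 15.2 and 17.7 CPM in NW. Neither passed (log2 fold change -0.21 ± 1.09 and -1.02 ± 1.16 SE; edgeR adjusted p = 1.0 for both). A morpholino blocks translation or splicing of its target without necessarily lowering its RNA, so these levels neither bear out nor go against the labels. Of the injected genes, the L entries had higher values in the NWS library of each pair: nog.L had 13.7, 7.17 and 62.6 CPM in NWS, against 10.98, 0 and 4.99 CPM in NW (log2 fold change 2.42 ± 1.31, edgeR adjusted p = 1.0), and wnt8a.L, too low to be tested, had 5.89, 4.30 and 31.3 CPM in NWS, against 0.499, 2.52 and 1.96 CPM in NW. These wnt8a.L values are 3, 3 and 34 counts in NWS, against 1, 1 and 22 counts in NW. The S entries were not tested and had few counts, with nog.S at 0, 0 and 1.84 CPM in NWS, against 0, 0 and 3.66 CPM in NW, and wnt8a.S at 0, 0 and 5.53 CPM in NWS, against 0, 0 and 0.268 CPM in NW. Without ribosomal RNA depletion both L entries could be tested and had higher values in the NWS library of each pair, but neither passed. There wnt8a.L stood at 4.52 ± 1.42 (edgeR adjusted p = 0.2301). Its counts were 16, 3 and 34 in NWS, against 0, 0 and 16 in NW. The undepleted value of nog.L was 2.498 ± 0.93 (edgeR adjusted p = 0.5088). Whether the nog and wnt8a reads are from injected or embryonic RNA was not tested.

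With libraries of the same number paired, 13 of the 6585 tested entries passed (edgeR quasi-likelihood test, Benjamini-Hochberg adjusted p under 0.05), which is 0.197% of those tested. Of these, 5 were higher in NWS (0.0759%): lmo7.L, phldb3.S, batf.S, znf608.S and LOC108719216. The 8 lower ones (0.121%) were both homeologs of id3, sox5.L, caprin2.S, ryr3.L, rev3l.L, Xelaev18022166m and Xelaev18022167m. Which direction had more calls depended on the setting: with the library number kept, there were 6 higher and 6 lower with DESeq2 size factors in edgeR, 0 and 3 with total count scaling, 7 and 2 with no filter on low counts, 13 and 10 with DESeq2 and 23 and 12 with limma-voom. All 13 moved the same way in the 3 pairs and had groups that did not overlap. They were picked by a fit to these same libraries, so this is no further support for them. Some had enough counts to be tested only through their higher group, such as batf.S (0 counts in each NW library) and ryr3.L (1, 1 and 0 counts in NWS). Among all tested entries 1674 (25.4%) moved one way in the 3 pairs, 569 (8.64%) had groups that did not overlap and 280 (4.25%) had an unadjusted p under 0.05. Without the library number in the fit, edgeR called 0 entries (245 at an unadjusted p under 0.05), and DESeq2 called 9, so the calls below hold for the paired reading of the design. Leaving out pair 1 gave 3 calls, 2 of them among the 13, and leaving out pair 3 gave 7, of which 3 were. The paired fit estimated a spread shared by all entries at a given level, so an entry's own scatter over its pairs did not widen its test.

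**Figure D1:**
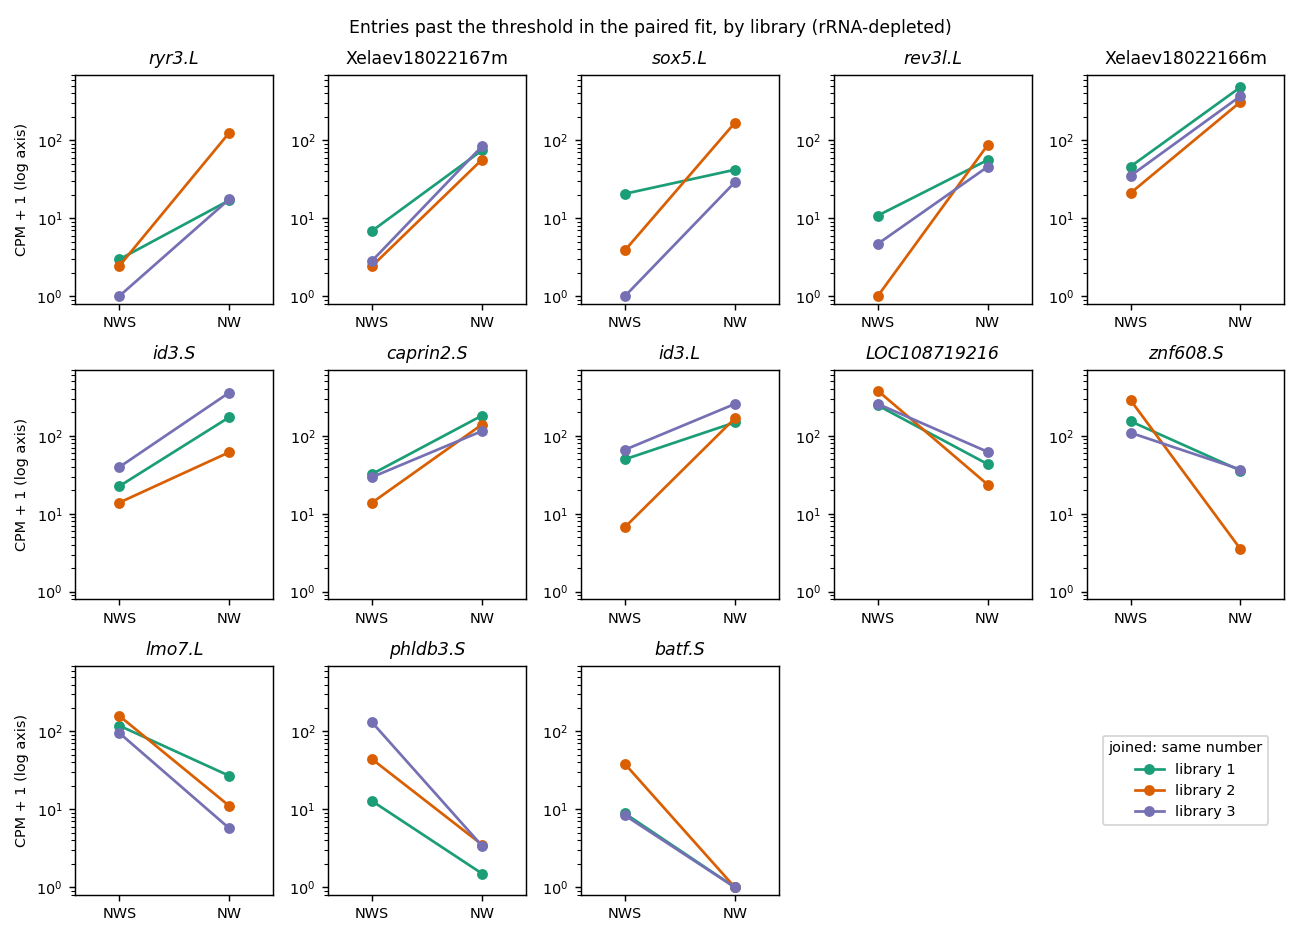
CPM plus 1 (log axis) of the 13 entries that passed, in NWS libraries (left of each panel) and NW libraries (right), with lines joining libraries of the same number. The lines of each panel all slope the same way, and the NWS and NW points of a panel do not overlap, for example 245 to 379.9 CPM in NWS against 22.7 to 61.5 CPM in NW for LOC108719216.

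**Figure D2:**
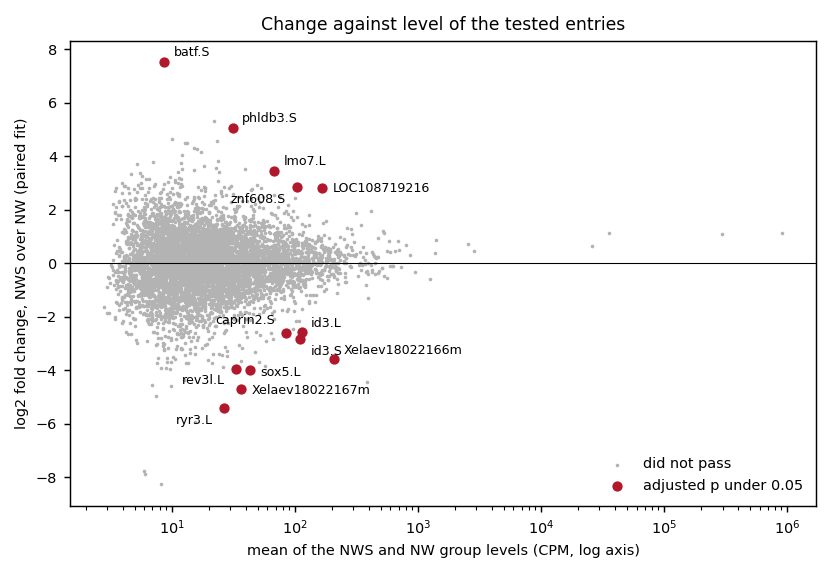
Log2 fold change of NWS over NW from the paired fit against the mean of the group levels (CPM, log axis) for the 6585 tested entries, with the 13 that passed in red. Grey points spread more widely at low levels, and batf.S, at 0 in all NW libraries, stands at a fitted value of 7.53 that depends on the prior count.

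Both homeologs of id3 fell in NWS explants. Id3 is a helix-loop-helix protein without a DNA-binding region that holds back other factors of its family, a common target of BMP signalling and, in Xenopus, a gene of neural crest progenitors. The id3.S entry had 21.6, 12.9 and 38.7 CPM in NWS libraries, against 172, 60.6 and 358 CPM in NW libraries. Its log2 fold change was -2.85 ± 0.64 (SE; edgeR adjusted p = 0.0106). The id3.L entry had 49.1, 5.74 and 65.4 CPM in NWS, against 148, 167 and 256 CPM in NW (log2 fold change -2.59 ± 0.64, edgeR adjusted p = 0.0386). For each copy the highest NWS library stayed below the lowest NW library. The other tested Id entry, id2.S, had 1.96, 2.87 and 14.7 CPM in NWS, against 10.5, 0 and 16.0 CPM in NW (-0.36 ± 1.47, edgeR adjusted p = 1.0), with overlapping groups. Per length, in mean FPKM values computed from the authors' deposited table, id3.S stood at 15.5 in NWS and 119 in NW and id3.L at 16.6 in NWS and 74.3 in NW, the highest and the third highest NW levels among the 13, with caprin2.S between them at 13.6 in NWS and 78.5 in NW.

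Other BMP target genes did not pass, and most genes of the pathway itself had values above zero. Of 11 tested entries on the list of BMP-responsive genes 8 were lower and 3 higher in NWS, with -0.84 as their median on the log2 scale, and id3.S and id3.L were the only ones that passed. Of 20 tested entries for BMP ligands, receptors, Smads and antagonists, 14 were higher and 6 lower, with a median of 0.91 and none past the threshold, where all 6585 entries had 3283 higher, 3302 lower and a median of -0.0028. The higher ones include nog.L, of an injected gene, at 2.42 ± 1.31. Since the list holds both ligands and antagonists, its count gives no direction for the signal. The type I receptor bmpr1b had higher values for both copies. For bmpr1b.S these were 88.3, 139 and 116 CPM in NWS, against 22.5, 2.52 and 40.8 CPM in NW (log2 fold change 2.56 ± 0.72, edgeR adjusted p = 0.112). For bmpr1b.L they were 35.3, 63.1 and 55.2 CPM in NWS, against 11.5, 0 and 10.3 CPM in NW (2.80 ± 0.94, edgeR adjusted p = 0.311). The groups did not overlap for either copy. The BMP family ligand gdf6.S had 19.6, 21.5 and 31.3 CPM in NWS, against 0, 0 and 19.6 CPM in NW (3.47 ± 1.43, edgeR adjusted p = 0.747). The medians of both lists kept their sign in 20 alternative settings.

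Among transcription factors of the neural crest, sox5.L fell, and most others were lower without passing. Sox5 is a SoxD protein, which lacks a transactivation domain of its own and acts with other Sox factors in crest and cartilage. The sox5.L entry (LOC108710702 in the table) had 19.6, 2.87 and 0 CPM in NWS libraries, against 40.9, 167 and 27.9 CPM in NW libraries (log2 fold change -4.0 ± 1.01, edgeR adjusted p = 0.0411). All NWS values lay below all NW values. A further entry named sox5, without a homeolog ending, stood at -2.45 ± 0.73 (edgeR adjusted p = 0.178). Of 31 entries on the crest specifier list 28 were tested, of which 23 were lower and 5 higher in NWS, with a median log2 fold change of -1.78; the 3 that passed were id3.S, id3.L and sox5.L. In 15 of the 28 the direction was the same in the 3 pairs.

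The crest specifiers were not lower to the same degree in each pair. The median difference of the 28 entries was -0.08 in pair 1, -1.64 in pair 2 and -2.83 in pair 3 on the log2 scale, against -0.10, 0.17 and -0.07 for all tested entries. In pair 1, 15 of the 28 were lower, in pair 2 19 and in pair 3 25, where 52.8%, 41.4% and 52.2% of all tested entries were lower. Sox10, a SoxE factor needed for crest survival and its glial and pigment derivatives, shows this pattern. The sox10.S entry had 62.8, 0 and 0 CPM in NWS, against 97.3, 7.58 and 178 CPM in NW (log2 fold change -3.84 ± 1.07, edgeR adjusted p = 0.105), and its groups overlapped. Within pair 2 the NW library held only 3 counts of sox10.S, so that a difference from 0 was not detectable there. Its paralogue sox8.S had 43.2, 0 and 2.76 CPM in NWS, against 73.4, 7.58 and 157 CPM in NW (-3.32 ± 1.02, edgeR adjusted p = 0.205). The pioneer factor foxd3.S (-4.37 ± 1.51) and the bHLH factor twist1.L (-2.55 ± 1.16) had edgeR adjusted p of 0.346 and 0.977.

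Some crest genes were near zero or above it. The sox9 copies had log2 fold changes of 0.25 ± 1.22 and 0.02 ± 0.66, snai1.L of -0.19 ± 0.75 and tfap2c.L of -0.19 ± 0.59, and none of them passed (edgeR adjusted p = 1.0 for each). The myc.S entry stood at 1.07 ± 1.11 and lhfpl2.L at 2.78 ± 1.38 (edgeR adjusted p = 1.0 for both). NW library 3, which had the highest total and the lowest share of LOC108705792 and ccdc50.L, was also the library with the highest sums of crest markers. The part of depth and composition in the difference of pair 3 was not tested; leaving out pair 1, 2 or 3 did not turn the sign of the list's median.

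**Figure D3:**
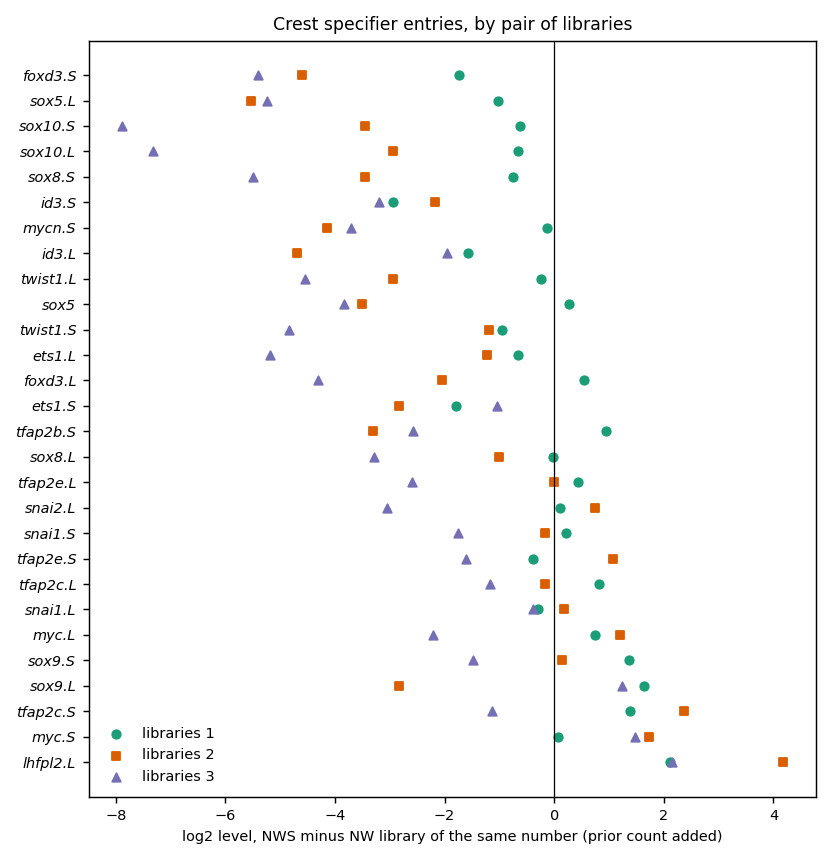
Log2 difference of the NWS library minus the NW library of the same number for the 28 tested crest specifier entries, ordered by log2 fold change, with a prior count of 2 added before taking logs. Pair 1 lies around zero with a median of -0.08, whereas in pair 3 25 of 28 entries lie below zero.

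Genes of the neural plate border, the region where crest arises, were spread about zero. Of 14 tested border entries 8 were higher and 6 lower, with a median of 0.17. The homeobox gene msx2, itself a BMP target, had values of 1.13 ± 0.67 for msx2.S and 0.88 ± 0.60 for msx2.L, and zic1.L stood at 0.78 ± 0.62 (edgeR adjusted p = 1.0 for each). The neural list had 14 higher and 10 lower of 24, with a median of 0.30. Among genes of crest migration and later derivatives 10 of 16 were lower, with a median of -0.27, and the epidermis list had 5 lower of 9 and a median of -0.55. The median of the epidermis list changed sign in 8 of 20 alternative settings, and that of the neural list in 3.

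Among the entries that rose, lmo7.L belongs to cell contacts and phldb3.S to a family of the cell cortex. Lmo7 is a LIM-domain protein found at cadherin junctions in mammals. The lmo7.L entry had 118, 158 and 94.8 CPM in NWS libraries, against 26.0, 10.1 and 4.73 CPM in NW libraries (log2 fold change 3.46 ± 0.74, edgeR adjusted p = 0.00488). Phldb3 carries a pleckstrin homology domain and belongs to a family that in mammals links the cell cortex to microtubules. The phldb3.S entry had 11.8, 43.0 and 129.8 CPM in NWS, against 0.499, 2.52 and 2.41 CPM in NW (5.06 ± 1.1, edgeR adjusted p = 0.00556). For neither entry did the groups overlap, and the NWS values of phldb3.S spread about as widely as its mean (61.5 ± 61.2 CPM, SD, n = 3) where those of lmo7.L did not (123 ± 31.8 CPM, SD, n = 3).

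On the list of junction and epithelial genes 19 of 26 tested entries were higher and 7 lower in NWS, with a median of 0.73 that kept its sign in 20 settings; lmo7.L alone passed. The tight junction gene cldn4.L had 37.3, 27.2 and 149 CPM in NWS, against 17.5, 2.52 and 2.32 CPM in NW (3.53 ± 1.02, edgeR adjusted p = 0.135). The epithelial adhesion gene epcam.S had 177, 18.6 and 94.8 CPM in NWS, against 19.5, 7.58 and 16.6 CPM in NW (2.48 ± 0.78, edgeR adjusted p = 0.237). The groups overlapped for epcam.S but not for cldn4.L. The list's tested members of highest level were not higher to this degree: dsp.L stood at -0.68 ± 0.60 and pard3.S at 0.18 ± 0.61. Neither of these passed. The list of adhesion and matrix genes had 15 higher and 16 lower of 31 and a median of -0.06. Its member tns1.L, a tensin of integrin contacts, had 39.2, 1.43 and 0 CPM in NWS, against 73.4, 42.9 and 98.9 CPM in NW, and missed the threshold narrowly (-3.90 ± 1.01, edgeR adjusted p = 0.0522). The laminin chain lama1.L stood at -1.48 ± 0.58 (edgeR adjusted p = 0.629). Other members were higher without passing, with lamb1.L at 1.58 ± 0.78 and itga5.L at 1.37 ± 0.66. The protocadherin pcdh8l.S, which is not on this list, stood at -3.71 ± 0.99 (edgeR adjusted p = 0.0743).

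Genes answering to Wnt signals mostly had higher values, although the wnt8 mRNA was injected in both groups. Of 22 tested entries on the Wnt-responsive list 18 were higher and 4 lower, with medians of 0.96, 1.46 and 0.74 in pairs 1, 2 and 3 and of 1.09 in the fit; none passed. The HMG-box effector tcf7.S had 124, 86.0 and 47.0 CPM in NWS, against 7.99, 22.7 and 16.5 CPM in NW (2.42 ± 0.78, edgeR adjusted p = 0.278). The receptor fzd7.L had 47.1, 41.6 and 119 CPM in NWS, against 12.98, 2.52 and 51.2 CPM in NW (2.03 ± 0.80, edgeR adjusted p = 0.615). For tcf7.S the groups did not overlap and for fzd7.L they did. Outside the list, kremen2.L, a receptor of the Wnt antagonist Dkk, had 39.2, 31.5 and 56.2 CPM in NWS, against 6.49, 2.52 and 2.497 CPM in NW (3.57 ± 1.08, edgeR adjusted p = 0.198). The values of wnt8a.L were also higher in the NWS library of each pair, with log2 differences of 2.41, 0.62 and 3.56 in pairs 1, 2 and 3. The counts were 3, 3 and 34 in NWS, against 1, 1 and 22 in NW. In pairs 1 and 2 the NWS library thus stood only at the floor of 3 counts, and those differences are within counting error. Any link between wnt8a.L and the values of this list was not tested.

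Caprin2, an RNA-binding protein reported to aid phosphorylation of the Wnt co-receptor, fell. The caprin2.S entry had 31.4, 12.9 and 28.6 CPM in NWS libraries, against 181, 139 and 114 CPM in NW libraries (log2 fold change -2.61 ± 0.66, edgeR adjusted p = 0.0411). The groups were far apart, with the highest NWS library at 31.4 CPM and the lowest NW library at 114 CPM. It was nonetheless one of the calls, with id3.L, that limma-voom with the library number did not make (adjusted p = 0.104 for caprin2.S and 0.0920 for id3.L).

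A calcium channel and a repair polymerase also fell, each the only tested entry of its list that passed. Ryr3 is a ryanodine receptor, which releases calcium from the endoplasmic reticulum. The ryr3.L entry had 1.96, 1.43 and 0 CPM in NWS, against 16.0, 124 and 16.5 CPM in NW (log2 fold change -5.42 ± 1.32, edgeR adjusted p = 0.0317). The NWS values are 1, 1 and 0 counts, so its size is poorly known. Rev3l is the catalytic subunit of DNA polymerase zeta, which copies past damaged bases. The rev3l.L entry had 9.81, 0 and 3.68 CPM in NWS, against 54.9, 85.9 and 44.8 CPM in NW (-3.97 ± 0.99, edgeR adjusted p = 0.0386). For both entries every NWS library lay below every NW library. The calcium list had 8 lower of 10 tested, with a median of -0.37, and the DNA repair list 11 lower of 19, with a median of -0.24. The kinase prkdc.L, which acts in end joining of broken DNA, had 13.7, 5.74 and 9.21 CPM in NWS, against 46.9, 68.2 and 27.2 CPM in NW (-2.23 ± 0.92, edgeR adjusted p = 0.747). On the same list brca1.L went the other way without passing. It had 33.4, 106 and 41.4 CPM in NWS, against 29.5, 7.58 and 14.6 CPM in NW (1.67 ± 0.85).

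The transcription factor gene batf.S, of the AP-1 family, was counted in every depleted NWS library and in no depleted NW library. Without depletion it was counted in NW too, with 1, 0 and 17 counts (0.183, 0 and 0.626 CPM). The NWS libraries there had 7, 1 and 7 counts (1.41, 0.915 and 1.73 CPM), and it was not tested. In depleted libraries batf.S had 4, 26 and 8 counts in NWS (7.85, 37.3 and 7.37 CPM), against 0 counts in each NW library (edgeR adjusted p = 0.0422). Its mean NWS level was at least 5.62-fold above the mean level that 3 counts per library would give in NW, or at least 2.44-fold without NWS library 2, and the floor of NW library 2, 7.58 CPM, is as high as the lower NWS values. On the stress and immediate early list 18 of 28 were higher and 10 lower, with a median of 0.36, and batf.S alone passed. The nuclear receptor nr4a1.L had 23.6, 0 and 101 CPM in NWS, against 8.49, 0 and 0 CPM in NW (5.3 ± 1.79, edgeR adjusted p = 0.315), so its groups overlapped. The chaperone hsp90aa1.1.L had 19.6, 98.9 and 17.5 CPM in NWS, against 0.499, 0 and 7.05 CPM in NW (3.83 ± 1.16, edgeR adjusted p = 0.202), and hsph1.S stood at 2.28 ± 0.90 (edgeR adjusted p = 0.629). The abundant chaperones hsp90ab1.S and hspa8.S had 0.39 ± 0.48 and 0.50 ± 0.49 (edgeR adjusted p = 1.0 for both).

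Genes of the p53 response and apoptosis had 14 higher and 9 lower of 23 tested, with a median of 0.38 that changed sign in 3 of 20 settings, and none passed. The growth-arrest gene gadd45g.L had 41.2, 4.30 and 96.7 CPM in NWS, against 8.49, 0 and 10.6 CPM in NW (2.86 ± 1.04, edgeR adjusted p = 0.480). The p53 target plk2.L had 1.96, 22.9 and 252 CPM in NWS, against 12.98, 2.52 and 2.85 CPM in NW (2.94 ± 1.18, edgeR adjusted p = 0.697). Both entries had overlapping groups. On the same list ccng1.L was lower, at -0.46 ± 0.85, and did not pass. Without ribosomal RNA depletion the median of this list was -0.05. The cell cycle list, with 29 higher and 20 lower of 49, had a median of 0.09, and mki67.L, a marker of dividing cells, stood at 0.43 ± 0.50 (edgeR adjusted p = 1.0).

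Genes of the splicing machinery were, as lists, close to all tested entries. Of 35 tested entries for U2 small nuclear ribonucleoprotein and SF3 factors 19 were higher and 16 lower, with a median of 0.10. Of 57 entries for SR and hnRNP proteins 36 were higher and 21 lower (median 0.15), and of 26 for nonsense-mediated decay and the exon junction complex 12 were higher and 14 lower (median -0.02). No tested member of these lists passed or had an unadjusted p under 0.05 in the edgeR fit. The SF3b partners sf3b3.L and sf3b1.S stood at -1.02 ± 0.73 and 0.88 ± 0.68 (edgeR adjusted p = 1.0 for both). The counts are per gene, so intron retention and exon skipping were not analysed here.

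**Figure D4:**
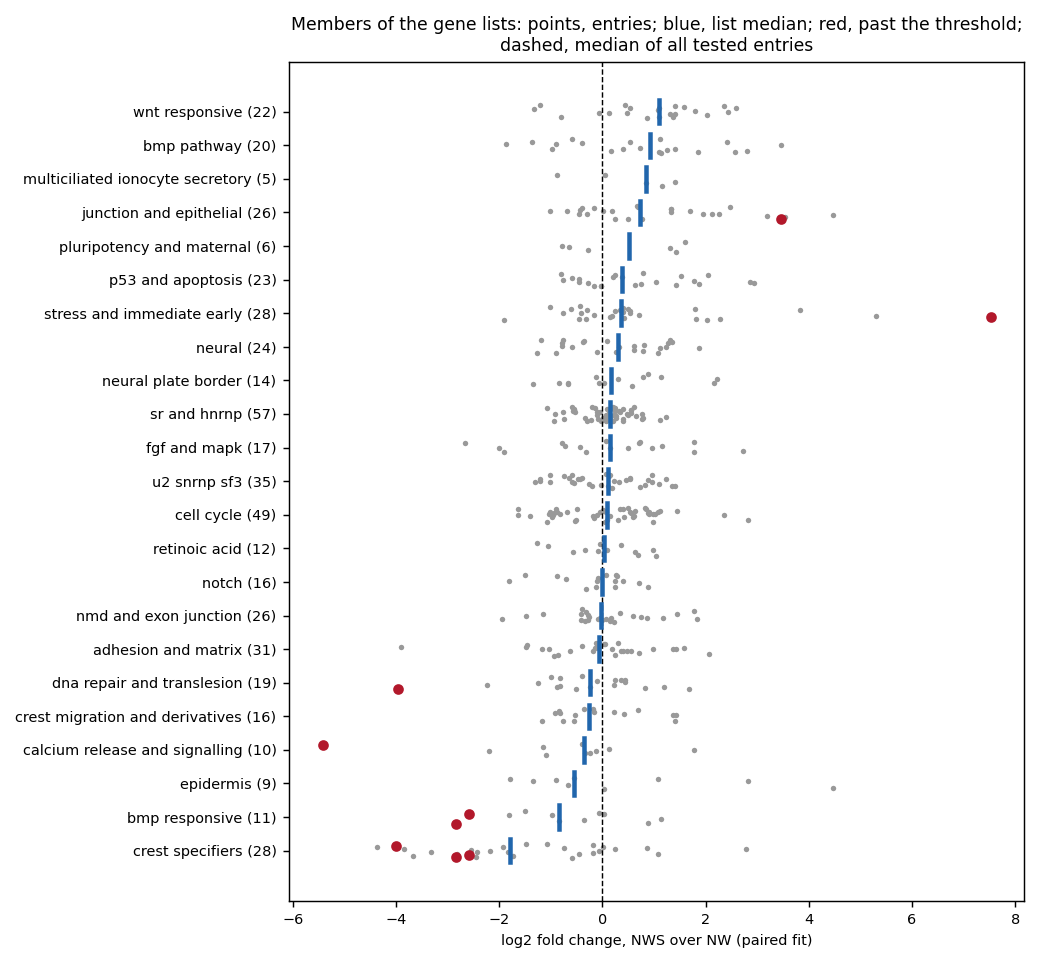
Log2 fold change of NWS over NW (paired fit) for each tested member of the gene lists with 5 or more tested members, with the number tested in brackets; blue bars are list medians, red points passed and the dashed line is the median of all tested entries, -0.0028. The crest specifiers have the lowest median (-1.78) and the Wnt-responsive genes the highest (1.09), while the splicing lists lie near the dashed line.

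The entry with the smallest p has no gene name in the files or the reference table. Xelaev18022166m had 45.1, 20.1 and 34.1 CPM in NWS libraries, against 481, 311 and 369 CPM in NW libraries (log2 fold change -3.59 ± 0.59, edgeR adjusted p = 5.82e-06). The groups were tight and far apart, at 33.1 ± 12.56 CPM in NWS and 387 ± 86.5 CPM in NW (SD, n = 3 each). Xelaev18022167m, with the next number in the series of names, had 5.89, 1.43 and 1.84 CPM in NWS, against 73.4, 55.6 and 82.8 CPM in NW (-4.70 ± 0.99, edgeR adjusted p = 0.00461). Again no values overlapped, and the NWS values are 3, 1 and 2 counts. Of the 13 calls, Xelaev18022166m alone remained when each pair was left out in turn.

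A further pair of entries rose that stand on none of the lists. LOC108719216, which the reference table gives no other symbol, had 245, 379.9 and 257 CPM in NWS libraries, against 42.4, 22.7 and 61.5 CPM in NW libraries (log2 fold change 2.81 ± 0.59, edgeR adjusted p = 0.00461). The zinc-finger gene znf608.S (LOC446274 in the table) had 153, 287 and 109 CPM in NWS, against 34.95, 2.52 and 36.0 CPM in NW (2.85 ± 0.67, edgeR adjusted p = 0.0205). NW library 2 was the lowest for both, with 9 and 1 counts. Just short of the threshold stood vgll3.L, a cofactor of TEAD transcription factors, with 9.81, 40.1 and 82.0 CPM in NWS, against 0, 0 and 7.76 CPM in NW (4.56 ± 1.18, edgeR adjusted p = 0.0520). The endocytic receptor gene lrp2.L had 109.9, 796 and 632 CPM in NWS, against 48.4, 169 and 143 CPM in NW (1.86 ± 0.53, edgeR adjusted p = 0.112). Its groups overlapped, although it was higher in NWS in each pair.

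Other entries of small p with one direction in the 3 pairs did not pass. On the higher side hist2h3c.L, a histone H3 gene, had 756, 717 and 455 CPM in NWS, against 59.9, 222 and 296 CPM in NW (1.96 ± 0.54, edgeR adjusted p = 0.105). Its groups did not overlap, but histone genes are multicopy and their reads may be shared. The protocadherin pcdh18.L had 9.81, 219 and 144 CPM in NWS, against 0.499, 55.6 and 29.7 CPM in NW (2.48 ± 0.71, edgeR adjusted p = 0.12), with overlapping groups. LOC108696174, without another symbol, stood at 2.8 ± 0.77 (edgeR adjusted p = 0.105). On the lower side greb1.L had 13.7, 10.04 and 1.84 CPM in NWS, against 102, 50.5 and 47.4 CPM in NW (-3.19 ± 0.89, edgeR adjusted p = 0.105), and the bromodomain gene baz2b.S had 35.3, 25.8 and 0 CPM in NWS, against 82.4, 146 and 61.8 CPM in NW (-2.93 ± 0.80, edgeR adjusted p = 0.102). The alpha-tubulin tuba4a.S had 9.81, 2.87 and 4.60 CPM in NWS, against 59.4, 27.8 and 57.6 CPM in NW (-3.15 ± 0.98, edgeR adjusted p = 0.225). In greb1.L, baz2b.S and tuba4a.S every NWS library lay below every NW library, and this was also so in frmd4b.S (-3.88 ± 1.08), ccdc150.L (-2.61 ± 0.76) and schip1.L (-5.95 ± 1.81), with edgeR adjusted p of 0.105, 0.149 and 0.202.

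Lists for other signals held no call. The Notch list had 8 higher and 8 lower of 16 tested (median -0.01), the retinoic acid list 6 and 6 of 12 (median 0.02) and the FGF and MAPK list 10 higher and 7 lower of 17 (median 0.15). On the last, dusp5.L, a phosphatase of ERK that FGF signals induce, had 19.6, 119 and 91.2 CPM in NWS, against 4.99, 0 and 32.1 CPM in NW (2.73 ± 0.86, edgeR adjusted p = 0.239). Its groups overlapped. The list of pluripotency and maternal genes had 3 higher and 3 lower of 6. Few entries of the multiciliated, placode and mesoderm lists could be tested (5, 3 and 1), and none of the endoderm list.

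Because Xenopus laevis is allotetraploid, most genes have an L and an S copy, and reads that match both may be split or lost between them. Of the calls only id3 had both copies tested; the other copies of lmo7, phldb3, ryr3, rev3l, caprin2 and batf were too low, batf.L at 0 in all libraries. With the copies of each gene summed, the sox5, znf608, ryr3, rev3l, caprin2 and batf calls were lost. That setting was a new fit with its own adjustment over 5568 entries. The part of the other copies in these losses was not tested. Across 1392 genes with both copies tested, 787 (56.5%) had the same direction in both, and the log2 fold changes of the copies correlated at r = 0.27 over genes, as a description of copies that share libraries. In 9 genes both copies had an unadjusted p under 0.05, and in each of them the direction was the same. These were mn1, bmpr1b and eya3 on the higher side and ets1, id3, rps12, sox10, tuba4a and twist1 on the lower side. For the ETS factor ets1, a crest specifier, the values were -2.17 ± 0.70 for the L copy and -1.83 ± 0.74 for the S copy (edgeR adjusted p = 0.278 and 0.697).

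The same comparison in the 6 libraries made without ribosomal RNA depletion gives values to set beside these. They may share RNA with the depleted libraries and are no independent repeat. There, 14 of 6284 entries passed the same paired fit (0.223%). Of the 13 calls 11 could be tested, all had the same sign and 4 passed, namely id3.L (-2.54 ± 0.60, edgeR adjusted p = 0.0167), phldb3.S (4.38 ± 1.12, edgeR adjusted p = 0.0396), Xelaev18022166m (-4.16 ± 0.59, edgeR adjusted p = 1.74e-08) and Xelaev18022167m (-3.20 ± 0.80, edgeR adjusted p = 0.0305). The smallest undepleted values among the calls were those of rev3l.L (-0.76 ± 0.90), znf608.S (1.46 ± 0.67) and sox5.L (-1.47 ± 1.09). Some named entries that did not pass in depleted libraries passed there. On the lower side these included sox10.S (-4.16 ± 0.94) and tns1.L (-3.23 ± 0.74), each with edgeR adjusted p = 0.0126. On the higher side were vgll3.L (4.58 ± 0.98, edgeR adjusted p = 0.0095), cldn4.L (3.73 ± 0.89), hist2h3c.L (2.55 ± 0.60) and dusp5.L (3.28 ± 0.82). The edgeR adjusted p was 0.0167 for cldn4.L and hist2h3c.L, and 0.0305 for dusp5.L. The crest specifier median was -1.62 there, and that of the Wnt-responsive list 1.05.

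The difference between the preparations was itself tested over 13224 entries, with both fits paired. No entry passed (edgeR, 0 calls, 76 at an unadjusted p under 0.05). The absence of calls does not show that the effects in both preparations were equal. The 76 are a far smaller share than the 0.05 a well-calibrated test would give without any difference, so this test was conservative. Its fit treated depleted and undepleted libraries of one number as separate, although they may share RNA. Among the 13 calls the effect in depleted minus that in undepleted libraries was largest for batf.S (5.13 ± 2.45), ryr3.L (-4.19 ± 1.74) and rev3l.L (-3.31 ± 1.28), each with an edgeR adjusted p of 1.0. Their unadjusted edgeR p were 0.036, 0.016 and 0.0098. For batf.S, with 0 counts in depleted NW libraries, the fitted size depends on the prior count.

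**Figure D5:**
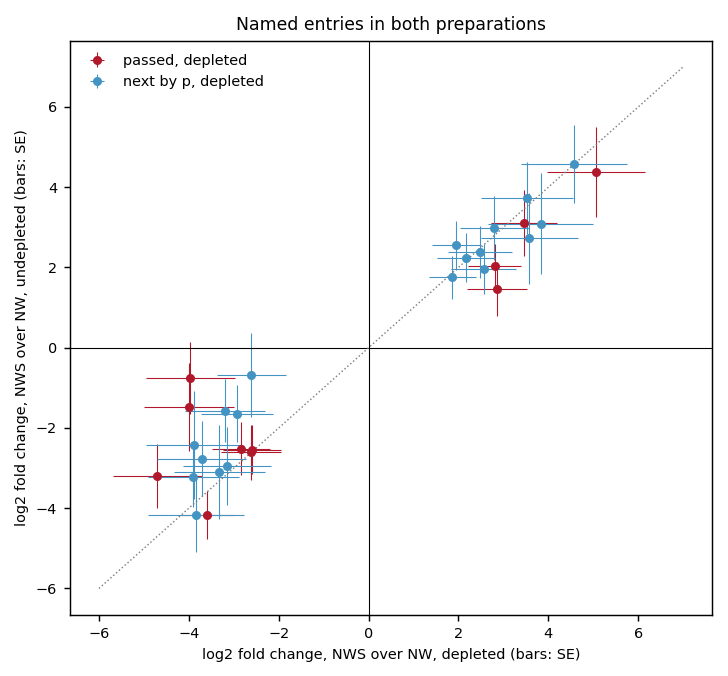
Log2 fold change of NWS over NW in undepleted libraries (vertical) against that in depleted libraries (horizontal), each with its SE, for the 13 calls (red) and the 20 further entries of smallest p with one direction in 3 pairs (blue), where both preparations could be tested; the dotted line marks equal values. All plotted entries lie in the lower left or upper right of the plot, and rev3l.L (-3.97 depleted, -0.76 undepleted) lies farthest above the line on the lower side among the calls.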

How the data were processed

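The tools named in the submitters' processing notes are STAR, featureCounts, bcl2fastq and DESeq2, with no versions. Genome build, strandedness and how multi-mapping reads were handled were not given in the sources used here. Deposited by the authors were raw counts per entry and library, with lanes added up, and FPKM values, whose scale matched DESeq2 size factors to within 0.000408%. FPKM values were used only as per-length levels.

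The main test was the quasi-likelihood test of edgeR 4.0.16 (R 4.3.3; TMM, filterByExpr with a minimum count of 10, fit on library number and group, Benjamini-Hochberg threshold 0.05 over all tested entries). The prior degrees of freedom were estimated as infinite, with 2 residual degrees of freedom. Each SE of an edgeR log2 fold change is its absolute value over the square root of the F statistic of the test. At very low counts this SE is only approximate. DESeq2 1.42.0 and limma-voom 3.58.1 were alternatives, as were other scalings and filters, summed homeologs and left-out libraries. Figures used Python 3.11.15 with matplotlib 3.10.9.

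The pairing comes from the library numbers in the titles. Deviations from the group means of same-numbered libraries correlated at 0.139, 0.248 and 0.155 over 6585 entries, and of other numbers at -0.189 to 0.066. Deviations within a group cancel, so positive values for same numbers bring lower ones for other numbers. The contrast between these sets is therefore partly built in. In the main fit, p-values rest on a spread between these libraries that is shared by all entries at a given level. They do not measure an entry's own scatter over its pairs.

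The members and the gene lists were chosen with earlier results of these data known. Named entries are the sf3b4, nog and wnt8a entries, those past the threshold, up to 10 higher and 10 lower entries by p with a mean of at least 10 CPM and one direction in 3 pairs, the leading 4 by p and 2 by level of each list, and homeologs of the calls; the other crest specifiers, dominant entries, marker entries and genes with both copies at an unadjusted p under 0.05 were added to describe their sets. Symbols for 3698 LOC entries came from a reference gene table of assembly Xenopus_laevis_v10.1. No sequences were used here. The FPKM table of the undepleted libraries was not used. Not every entry that this naming rule picks is reported here.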

Additional observations from a re-analysis of the deposited data

How the results depend on the processing

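None of the 13 calls changed direction in any alternative in which it was tested. With the replicate block removed, 0 entries passed in place of 13; scaling to total counts gave 3, with the median of all entries at -0.64 and the cause was not tested; summing homeologs gave 7, DESeq2 with the library number 23, limma-voom with it 35 and both preparations summed 26. Leaving out libraries gave 0 to 24 calls. In fits with the library number, 3, 9 and 7 entries passed without pair 1, 2 and 3, of which 2, 3 and 3 were among the 13. In fits without it, leaving out NWS library 1 gave 24 calls, NWS library 2 gave 4, NWS library 3 gave 3, NW library 1 gave 7, and NW library 2 or 3 gave 0. DESeq2 with the library number kept 13 of the 13 and limma-voom 11; upper-quartile scaling (15 calls), DESeq2 size factors (12), no filter on low counts (9), a minimum count of 30 (10) and leaving out the 4 dominant entries (13) gave counts within 1.5 times, keeping 13, 11, 5, 9 and 12 of the 13. With no filter, both id3 copies, sox5.L, caprin2.S, rev3l.L, ryr3.L, znf608.S and batf.S were lost. At an adjusted p under 0.1 there were 16. List medians that kept their sign in 20 settings ran from -2.82 to -0.46 for crest specifiers, 0.51 to 1.31 for Wnt-responsive genes, 0.25 to 1.77 for the BMP pathway and 0.11 to 1.28 for junction genes. NWS library 1 and NW library 2 had the fewest counts outside the 4 dominant entries, which limits what can be said of entries under about 10 CPM. The alternative DESeq2 fit without the library number (9 calls) was added after seeing the data.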
